A study of Mus musculus with 6 samples.

Results

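The genes described here are 30 genes that mark the fat cells (adipocytes) of the mammary fat pad, read out of RNA sequencing of whole mammary tumours. They were taken by their symbols, and each of the 30 symbols was found once in each table of 55487 gene rows. Of the 30, 29 passed the filter on low counts and entered the test among 17396 genes, and Lep did not. A member of the 29 could pass through its counts in the libraries where it was high, so the 29 are not the whole set.

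The tumours came from MMTV-PyMT mice, whose middle T antigen of polyoma virus is expressed from the promoter of the mouse mammary tumour virus and transforms the mammary epithelium. All 6 tumours carried this transgene. Of these, 3 came from mice given DMHCA, which activates the liver X receptors (LXR), by mouth in gel cups without a break from 6 weeks of age, and the other 3 were controls, called vehicle here. The design asks what LXR activation does to these tumours. The labels give neither age at collection nor how much fat pad was cut out with each tumour, and all titles of a group share 1 code, so whether its tumours are from separate animals is not known. The p-values therefore reflect the spread among these samples, part of which may be technical. The code also differs between the groups, and the labels do not say what it stands for. A difference that goes with the code cannot be told apart from a difference by treatment.

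A white adipocyte stores triglyceride in a single large droplet coated by perilipin and CIDE proteins, and releases fatty acids from it through a chain of lipases under the control of insulin and catecholamines. The nuclear receptor PPARgamma and the factor C/EBPalpha switch on most of this programme, and the cell secretes hormones such as adiponectin and leptin. In the mammary gland the epithelium grows into a pad of such cells, and tumours replace that pad as they expand. Brown and beige adipocytes share the programme and add the uncoupling protein UCP1. In a bulk sample, fewer adipocytes and less RNA per adipocyte cannot be told apart, so a level below means RNA per tumour piece.

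The libraries held between 36577451 and 42595799 counts each, of which these 30 genes took between 0.0715% and 0.186%. At this depth 3 counts, the limit that a count of 0 allows, correspond to between 0.0684 and 0.0813 CPM (counts scaled to a library of fixed size), for counting error only. The labelled tissue carried its markers, since 8 luminal epithelial genes summed to between 2716 and 3301 TPM (transcripts scaled likewise, a level per length) and varied little between libraries. Levels within 1 gene are given below as CPM scaled to the TMM-adjusted library total, and levels of different genes are set against each other as TPM only.

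The stretches just before the transcription start of 4 members are shown first, because these genes encode the best known products of the adipocyte (adiponectin, leptin, the droplet coat protein perilipin 1 and the droplet fusion protein CIDEC) and all were highest in the same tumour. Capitals mark matches to the C/EBP letters TTGCNNAA on either strand. Cidec has another start, whose window holds no such match and is not shown. The sequences are the 250 bases before the start in RefSeq on build GRCm38.p6, each on the gene's own strand.
Adipoq, chr16:23146286-23146535, plus strand: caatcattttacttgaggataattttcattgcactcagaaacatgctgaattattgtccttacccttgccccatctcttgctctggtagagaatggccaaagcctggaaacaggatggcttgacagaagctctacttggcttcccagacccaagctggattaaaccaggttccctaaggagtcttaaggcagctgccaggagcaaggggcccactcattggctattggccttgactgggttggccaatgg
Lep, chr6:29059971-29060220, plus strand: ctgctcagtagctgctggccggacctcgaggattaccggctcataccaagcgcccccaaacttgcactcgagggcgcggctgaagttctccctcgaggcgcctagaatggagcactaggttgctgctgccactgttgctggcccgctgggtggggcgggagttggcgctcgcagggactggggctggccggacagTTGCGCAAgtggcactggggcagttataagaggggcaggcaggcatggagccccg
Plin1, chr7:79732777-79733026, minus strand: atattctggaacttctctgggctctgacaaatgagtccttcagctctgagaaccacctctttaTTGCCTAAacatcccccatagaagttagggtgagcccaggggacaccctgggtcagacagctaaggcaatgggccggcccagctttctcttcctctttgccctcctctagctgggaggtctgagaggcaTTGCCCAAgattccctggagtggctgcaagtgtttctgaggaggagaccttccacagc
Cidec, second start, chr6:113434765-113435014, minus strand: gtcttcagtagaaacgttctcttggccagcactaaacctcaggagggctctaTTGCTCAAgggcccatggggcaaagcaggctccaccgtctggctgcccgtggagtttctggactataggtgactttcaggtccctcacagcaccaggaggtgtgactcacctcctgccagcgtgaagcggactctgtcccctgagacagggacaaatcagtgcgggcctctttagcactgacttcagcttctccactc
The RefSeq table held windows for 20 of the 30 members, 27 windows in all, each of 250 bases before and 50 after the start. TTGCNNAA was in 5 of the 27 (18.5%), those of Lep, Plin1, Retsat, the second start of Cidec and the third start of Pparg, beside 10.8% of all 32851 windows in the table. Lep had the match TTGCGCAA at bases -55 to -48, which reads the same on both strands, and Plin1 had a pair, TTGCCTAA at -187 to -180 and TTGCCCAA at -58 to -51. The direct repeat AGGTCANAGGTCA, bound by PPAR with RXR, was in 0 member windows and in 0.0396% of all windows. The repeat with 4 bases between, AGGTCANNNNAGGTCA, which LXR binds with RXR, was also in 0 member windows and in 0.0152% of all, and both repeats contain the core AGGTCA, present in 18.5% of member windows and 16.3% of all. TATAAA was in 14.8% of member windows (Retsat, Pparg, Cebpa and Cyp2e1) and 13.6% of all. The absence of a match says only that these letters are not in this window.

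Adiponectin, encoded by Adipoq on chromosome 16 (23146536 to 23158028, plus strand), is made almost only by adipocytes and serves here as the reference for the others. Adipoq was at 17.4, 10.3 and 3.72 CPM in agonist replicates 1, 2 and 3 and at 6.63, 36.6 and 1.72 CPM in vehicle replicates 1, 2 and 3. Both the highest and the lowest tumour were vehicle tumours, 21.3-fold apart, and the 3 agonist tumours lay between them. Between groups Adipoq differed by -0.51 ± 1.07 on the log2 scale (fold change ± SE), with a 95% interval of -3.10 to 2.07. The edgeR quasi-likelihood adjusted p was 0.990 (Benjamini-Hochberg over all genes tested). Without vehicle replicate 2 the same value was 1.32, and without agonist replicate 1 it was -1.08, so that 1 tumour sets the direction.

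Other secreted products kept the same order of tumours over a wider range. Cfd encodes adipsin (complement factor D), one of the most abundant adipocyte transcripts. Cfd was at 178, 99.7 and 25.4 CPM with agonist and at 55.5, 323 and 8.40 CPM with vehicle, a 38.5-fold range inside the vehicle group. Retn, which encodes resistin, was at 9.16, 5.10 and 0.931 CPM with agonist and at 2.53, 12.0 and 0.348 CPM with vehicle. Orm1, the acute phase protein orosomucoid, had 80, 42 and 21 counts with agonist and 35, 207 and 7 with vehicle, and the exact Poisson interval of the lowest (2.81 to 14.4 counts) lay below that of every other tumour except agonist replicate 3 (13.0 to 32.1). In all of these the groups overlapped. The log2 fold changes were -0.36 ± 1.23 for Cfd, 0.03 ± 1.24 for Retn and -0.81 ± 1.16 for Orm1 (SE), each with an edgeR adjusted p of 0.990 or more. Without vehicle replicate 2 they were 1.65, 1.80 and 1.32.

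Leptin, the satiety hormone, was barely detected. Lep had 4, 11 and 5 counts with agonist and 4, 62 and 9 with vehicle, so that vehicle replicate 2 alone held most of its counts. The exact Poisson interval there was 47.5 to 79.5 counts, above the upper bounds of all other tumours, of which the highest was 19.7. As a level per length, Lep reached 0.5 TPM in that tumour, while Adipoq reached 33.0 TPM.

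**Figure D1:**
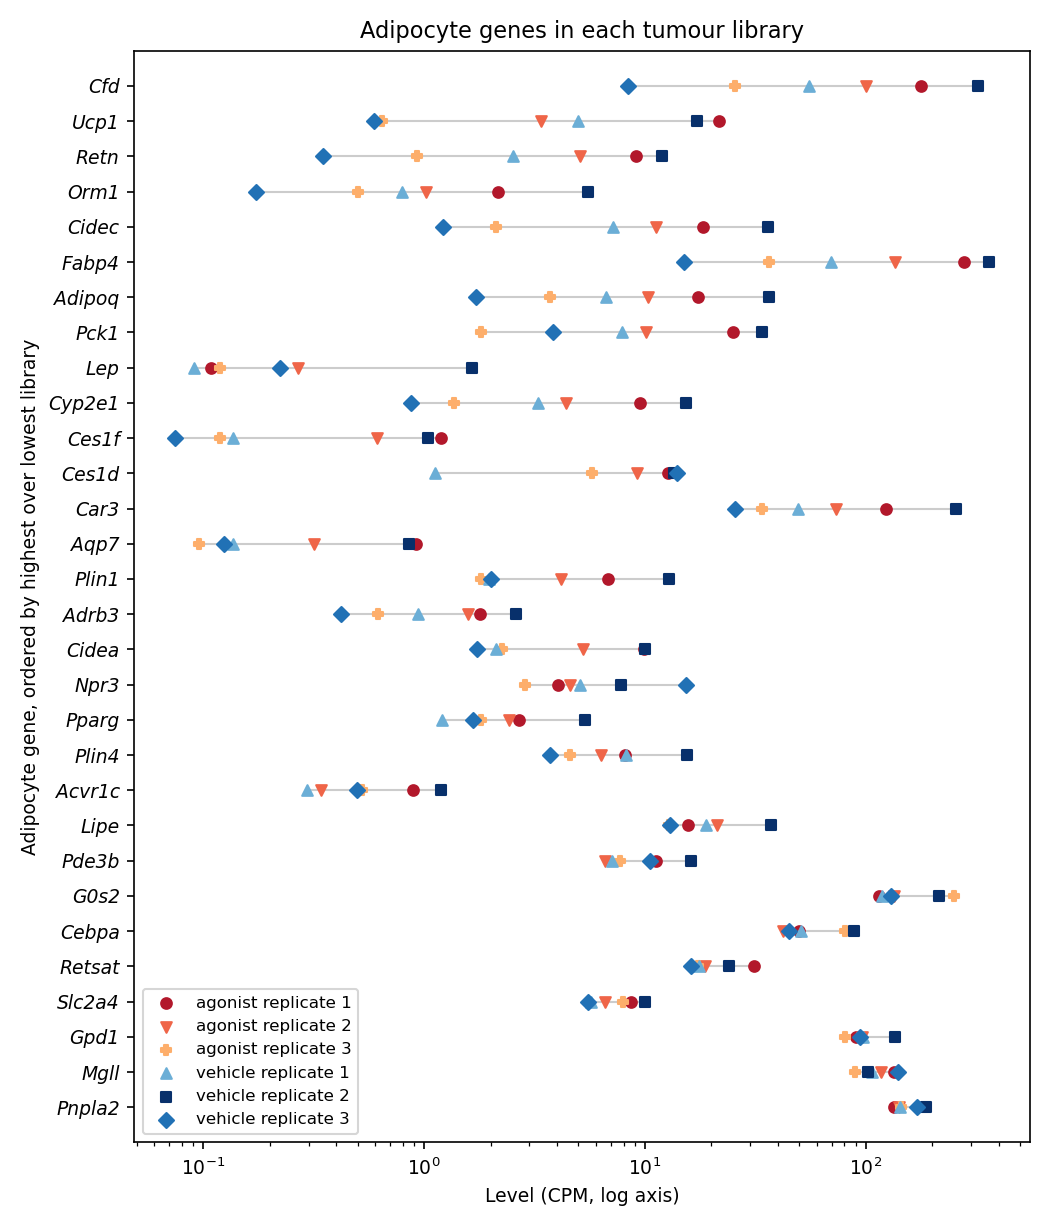
Level of each of the 30 adipocyte genes in each tumour library, in CPM on a log axis, with genes ordered by the ratio of the highest to the lowest library and 1 symbol per library (reds for agonist, blues for vehicle). Vehicle replicate 2 and agonist replicate 1 lie at the upper end and vehicle replicate 3 and agonist replicate 3 at the lower end for most genes, while the libraries of Pnpla2, Mgll and Gpd1 lie within 1.69-fold of each other.

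Of the lipid droplet proteins, Cidec followed Adipoq in full, the perilipins and Cidea in part, and G0s2 did not. Cidec, which drives droplet fusion in white fat, was at 18.2, 11.2 and 2.12 CPM with agonist and at 7.20, 35.99 and 1.22 CPM with vehicle, in the order of Adipoq. Plin1, which guards the adipocyte droplet from lipases, was at 6.77, 4.17 and 1.81 CPM with agonist and at 1.96, 12.9 and 2.01 CPM with vehicle. Its 3 lowest tumours were close together and its range was 7.12-fold, narrower than that of Cidec (29.5-fold). Cidea, a relative of Cidec that is abundant in brown fat and in the lactating gland, was at 9.89, 5.22 and 2.24 CPM with agonist and at 2.12, 9.96 and 1.74 CPM with vehicle, so that agonist replicate 1 and vehicle replicate 2 were level. Plin4, another perilipin of fat cells, ran from 3.71 CPM in vehicle replicate 3 to 15.5 CPM in vehicle replicate 2. G0s2, the inhibitor of the main triglyceride lipase, is made in many cell types and had another order, with its highest level of 251 CPM in agonist replicate 3 and its lowest of 115 CPM in agonist replicate 1. The 5 log2 fold changes lay between -0.53 (Plin4) and 0.33 (Cidea), and no edgeR adjusted p was under 0.990.

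The enzymes that break the stored fat down differed in how widely they ranged. Pnpla2, Lipe and Mgll encode the 3 lipases that act in turn on triglyceride, diglyceride and monoglyceride, and they ranged over 1.41-fold, 2.88-fold and 1.57-fold. Pnpla2, which encodes the lipase ATGL, was at 133, 141 and 144 CPM with agonist and at 143, 188 and 171 CPM with vehicle, a range of 1.41-fold, the narrowest of the tested members. Its log2 fold change of -0.26 ± 0.15 had the tightest interval of the 29 (-0.62 to 0.09). Lipe, the hormone-sensitive lipase, spanned 12.9 to 37.2 CPM with its top in vehicle replicate 2, and Mgll spanned 89.4 to 140 CPM with its top in vehicle replicate 3. Gpd1, which makes the glycerol phosphate backbone of triglyceride, spanned 80.5 to 136 CPM.

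The remaining members of this group ranged much more widely. Pck1, the enzyme of glyceroneogenesis in fat and of gluconeogenesis in liver, was at 25.1, 10.1 and 1.81 CPM with agonist and at 7.91, 34.0 and 3.85 CPM with vehicle. The glycerol channel gene Aqp7 had 34, 13 and 4 counts with agonist and 6, 32 and 5 with vehicle, and the carboxylesterase gene Ces1f had 44, 25 and 5 against 6, 39 and 3. For both, agonist replicate 1 was slightly above vehicle replicate 2, within the exact Poisson intervals (23.5 to 47.5 and 21.9 to 45.2 counts for Aqp7). Ces1d, a neighbouring carboxylesterase gene and a triglyceride hydrolase of fat and liver, broke the pattern. Ces1d was at 12.8, 9.18 and 5.75 CPM with agonist and at 1.12, 13.5 and 14.0 CPM with vehicle, so its highest level was in vehicle replicate 3, the tumour with the least Adipoq. The Ces1 genes are a family of close copies on chromosome 8, and although all their deposited counts were whole, the split of reads among the copies is uncertain. The log2 fold changes of the 8 genes lay between -0.47 (Lipe) and 0.62 (Ces1f), and none was called.

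The master regulators were low or shared with the epithelium. Pparg was at 2.68, 2.42 and 1.81 CPM with agonist and at 1.21, 5.35 and 1.67 CPM with vehicle, at most 3.22 TPM. Cebpa, which epithelial and myeloid cells also make, had a higher level per length (20.2 to 36.2 TPM) and was at 50.1, 42.0 and 80.1 CPM with agonist and 50.6, 88.1 and 44.9 CPM with vehicle. Both were highest in vehicle replicate 2, but agonist replicate 3, one of the tumours lowest in Adipoq, was second highest for Cebpa. The log2 fold changes were -0.25 ± 0.59 for Pparg and -0.09 ± 0.33 for Cebpa (SE), and 0.68 and 0.26 without vehicle replicate 2.

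Among receptors and signalling proteins, Adrb3, the beta-3 adrenergic receptor through which catecholamines start lipolysis, followed the Adipoq order at low level, from 17 counts in vehicle replicate 3 to 98 in vehicle replicate 2. Acvr1c, the activin receptor ALK7 that restrains lipolysis, had between 13 and 45 counts. Pde3b, the phosphodiesterase by which insulin stops lipolysis, ranged from 6.61 to 16.2 CPM.

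Npr3, which encodes the clearance receptor for natriuretic peptides, was the one member whose groups did not overlap. Npr3 was at 4.04, 4.56 and 2.86 CPM with agonist and at 5.06, 7.80 and 15.3 CPM with vehicle, and its highest tumour was vehicle replicate 3, which was the lowest for Adipoq. The agonist group was lower by a log2 fold change of -1.30 ± 0.44 (SE, with a 95% interval of -2.33 to -0.27), with an unadjusted p of 0.0199 and an adjusted p of 0.990 by edgeR's quasi-likelihood test. Over all genes tested, 4.22% were lower with agonist without overlap and 2.37% had an unadjusted p under 0.05 in that direction, so 1 of 29 is near the background in both. Without vehicle replicate 3 the log2 fold change of Npr3 was -0.74. An exon of Npr3 overlaps the gene Gm5144 on the other strand, and the strand setting of the counting is not given in the sources used here.

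The transport proteins differed from each other. Fabp4, the fatty acid carrier aP2, had the highest peak level of all 30, 533 TPM in vehicle replicate 2 and 453 TPM in agonist replicate 1. Fabp4 was at 277, 135 and 36.6 CPM with agonist and at 69.3, 361 and 14.99 CPM with vehicle, in the order of Adipoq. Its log2 fold change was 0.01 ± 1.15 (SE), 1.82 without vehicle replicate 2 and -0.78 without agonist replicate 1. Capillary endothelium also makes Fabp4. The mean of 8 endothelial markers was 0.57, 0.22 and -0.14 log2 CPM in the agonist tumours and -0.26, 0.49 and -0.88 in the vehicle tumours, and its part in the Fabp4 level was not tested. Slc2a4, the insulin-responsive glucose transporter GLUT4, spanned only 5.52 to 10.04 CPM, a 1.82-fold range. Skeletal muscle is its other main site, and 8 muscle markers were detected in every tumour at a summed level of 458 to 726 TPM. Their part in the Slc2a4 level was not tested.

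Of the enzymes typical of fat tissue, Car3 (carbonic anhydrase 3) was at 123, 73.5 and 34.0 CPM with agonist and at 49.3, 255 and 25.6 CPM with vehicle. Cyp2e1, a cytochrome P450 that white fat shares with liver, was at 9.54, 4.39 and 1.36 CPM with agonist and at 3.28, 15.3 and 0.870 CPM with vehicle. Both kept the full order of Adipoq. Of 6 liver genes 0 passed the filter, and together they summed to at most 3.56 TPM, in vehicle replicate 1. The part of liver RNA in the levels of Cyp2e1, Orm1 and Pck1, the members best known from liver, was not tested. Retsat, the PPARgamma target retinol saturase, was highest in agonist replicate 1 at 31.3 CPM and between 16.1 and 24.0 CPM in the other tumours. The log2 fold changes were -0.52 ± 0.89 for Car3, -0.35 ± 1.09 for Cyp2e1 and 0.22 ± 0.27 for Retsat (SE), with edgeR adjusted p of 0.990 or more.

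Ucp1, the proton channel of brown and beige fat, had 800, 139 and 27 counts with agonist and 219, 645 and 24 with vehicle, or 21.7, 3.39 and 0.645 CPM against 4.99, 17.2 and 0.597. Its highest tumour was agonist replicate 1 rather than vehicle replicate 2, and its 36.3-fold range was next to that of Cfd among the members. Set against Adipoq as a ratio of TPM, Ucp1 was at 0.934 in agonist replicate 1, at 0.349 in vehicle replicate 2 and at 0.556 in vehicle replicate 1, and between 0.130 and 0.261 in the other tumours. Of the other brown fat genes taken as this ratio, only Elovl3 was also highest in agonist replicate 1 (0.0953). Cidea (1.23), Cox8b (9.35) and Kcnk3 (0.0652) were highest in vehicle replicate 3, the tumour poorest in Adipoq. Dio2 was highest in agonist replicate 3 (0.221). The same ratio for Cfd held between 14.1 and 16.6 in the 4 tumours richest in Adipoq and dropped to 11.3 and 8.08 in the poorest ones. Ucp1 had a log2 fold change of 0.18 ± 1.42 (SE) with a 95% interval of -3.25 to 3.60, and the value went from -1.90 without agonist replicate 1 to 1.60 without vehicle replicate 2.

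**Figure D2:**
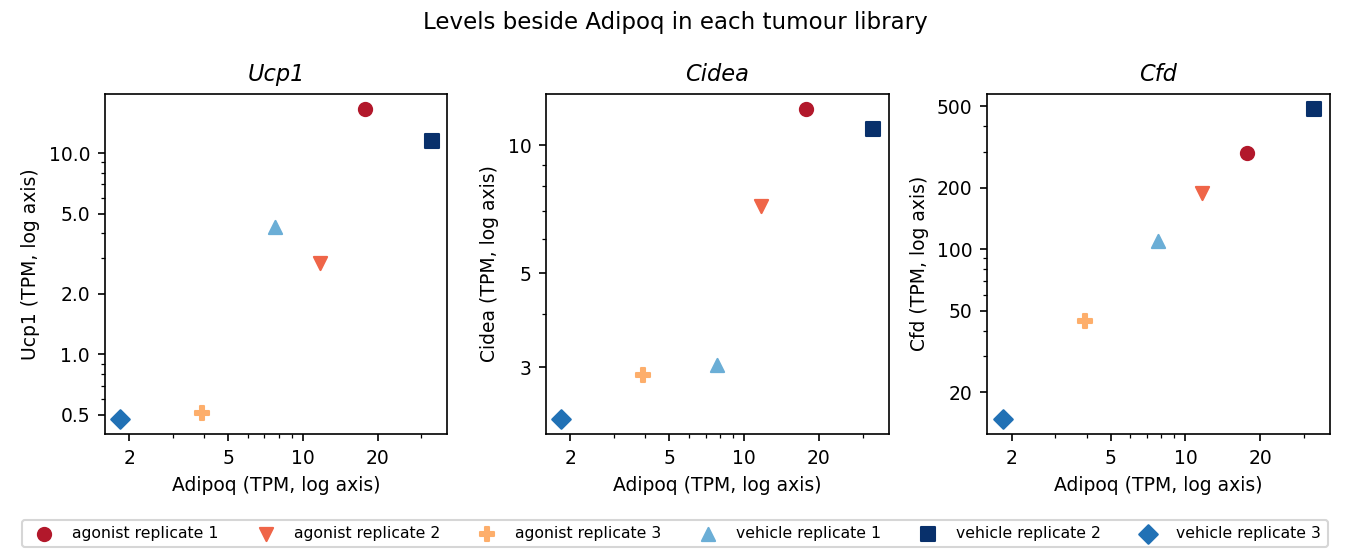
Levels of Ucp1, Cidea and Cfd against that of Adipoq in the 6 tumour libraries, in TPM on log axes, with 1 symbol per library. Cfd climbs with Adipoq tumour by tumour. In TPM, Ucp1 and Cidea peak in agonist replicate 1 (16.6 and 12.2 TPM) and are lower in vehicle replicate 2 (11.5 and 10.9 TPM). In CPM, Cidea is level in these tumours (9.89 and 9.96 CPM).

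Read across all roles, the spread among tumours was large and was not aligned with treatment. The median range of the 29 tested members was 5.63-fold from the lowest to the highest tumour, beside 1.82-fold for all genes tested, and 12 members ranged over more than 8-fold, beside 5.65% of all genes. Vehicle replicate 2 was the highest tumour for 21 of 29, beside 16.9% of all genes, and vehicle replicate 3 the lowest for 15, beside 20.7%. Vehicle replicate 1 was the highest for 0 members, beside 21.8%, and the lowest for 3 (Ces1d, Pparg and Acvr1c), beside 22.8%. The 2 highest tumours were those of Adipoq for 20 members, Adipoq among them, beside 9.26%, and the 2 lowest for 16, beside 5.62%. The full Adipoq order of tumours (vehicle 2, agonist 1, agonist 2, vehicle 1, agonist 3, vehicle 3) was kept by Retn, Cfd, Orm1, Cidec, Adrb3, Fabp4, Car3 and Cyp2e1 as well as Adipoq, beside 0.293% of all genes. A mean over the tested members, as a deviation from each gene's own mean in log2 CPM, was 0.77, 0.12 and -0.79 in agonist replicates 1, 2 and 3 and -0.40, 1.29 and -0.99 in vehicle replicates 1, 2 and 3. The group means of 0.03 ± 0.78 with agonist and -0.03 ± 1.19 with vehicle (SD, n = 3) were far closer than the tumours within either group. Leaving out 13 members taken as shared with muscle, liver, endothelium or epithelium kept the order, at 0.89, 0.17, -0.90, -0.48, 1.46 and -1.14. Those left still held Ces1d and Cidea, which liver and the lactating gland also make.

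G0s2, Pnpla2, Fabp4, Mgll, Cfd, Gpd1, Car3 and Cebpa, the most abundant of the 30 by counts, each gave at least 5.46% of all member counts, and among them only Fabp4, Cfd and Car3 kept the Adipoq order. The summed TPM of all 30 moved less, from 574 in vehicle replicate 3 to 1918 in vehicle replicate 2, than that of the 17 members less shared with other tissues (83.5 to 667). The 3 members highest in vehicle replicate 3, the tumour poorest in Adipoq, were Mgll, Ces1d and Npr3.

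Tested against treatment, 0 of the 29 members passed an edgeR adjusted p of 0.05, as did 0% of all 17396 genes, and the smallest adjusted p of a member was 0.990. With an unadjusted p under 0.05, 0 members were higher, beside 0.719% of all genes, and 1 was lower, Npr3. DESeq2 and limma-voom each called 0 members and had 1 with an unadjusted p under 0.05, and limma-trend on TPM had 0 of both. No member was higher in all 3 agonist tumours than in every vehicle tumour, beside 3.02% of all genes. Positive log2 fold changes were found for 10 members and negative ones for 19, with a median of -0.25, while 49.3% of all genes were positive and their median was -0.00486. The median width of the 95% interval was 3.83 log2 units for the members and 1.26 for all genes, so the design could not resolve differences of a few fold in most of them. Leaving out vehicle replicate 2 turned the split to 24 positive and 5 negative (median 0.96, smallest edgeR adjusted p 0.323). Leaving out agonist replicate 1 or vehicle replicate 1 gave 2 positive and 27 negative (medians -0.65 and -0.53), without vehicle replicate 3 it was 5 and 24 (median -0.44), and without agonist replicate 3 it was 14 and 15 (median -0.01).

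**Figure D3:**
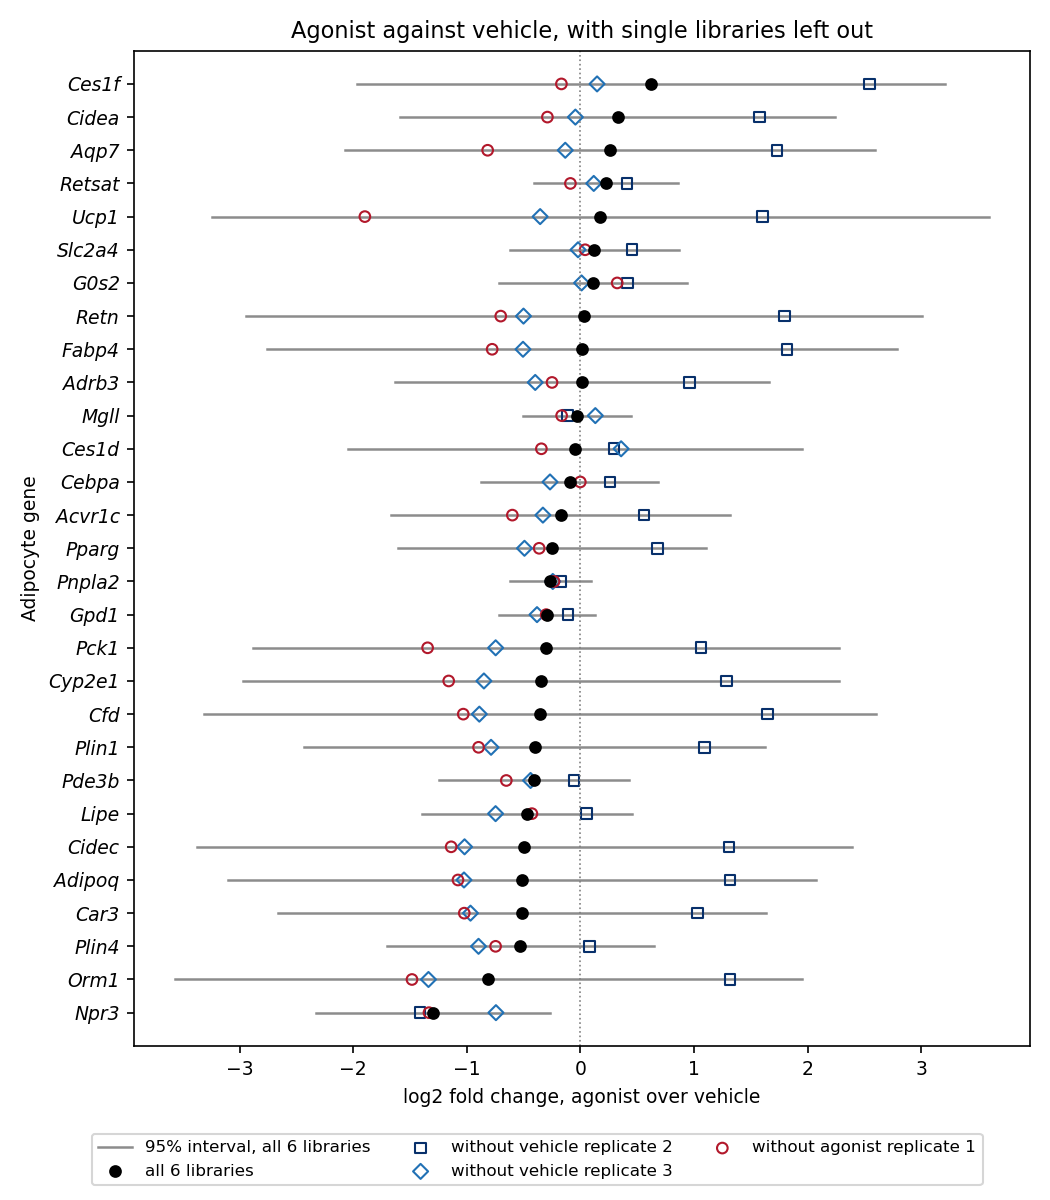
log2 fold change of each of the 29 tested adipocyte genes, agonist over vehicle, with 95% intervals from the edgeR fit (black points, grey lines) and the value with 1 library left out (open symbols). All intervals but that of Npr3 cross 0, and the values without vehicle replicate 2 lie to the right of 0 for 24 genes.

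Other fat cell genes that are not members gave much the same picture as a list mean, but not gene by gene. Of 14 such genes 13 were tested, 4 with positive and 9 with negative log2 fold changes (median -0.32) and 0 called. Of the 13, 8 were highest in vehicle replicate 2, beside 16.9% of all genes. Adig, Arxes2 and Adra2a were highest in agonist replicate 1. Ghr and Lgals12 were highest in vehicle replicate 3, the tumour poorest in Adipoq, and Lgals12 ranged over only 1.26-fold. The mean deviation of the list was highest in vehicle replicate 2 (1.19) and lowest in vehicle replicate 3 (-0.86), as for the members. The 3 with the smallest unadjusted p were Hcar1, the lactate receptor of fat cells (-1.71 ± 0.84), Trarg1, a partner of GLUT4 vesicles (-0.67 ± 0.77), and Arxes2, a gene expressed in adipocytes (0.26 ± 0.31; log2 fold change ± SE). Hcar1 was at 0.379, 0.268 and 0.191 CPM with agonist and at 0.319, 2.13 and 0.323 with vehicle, and without vehicle replicate 2 its log2 fold change was -0.21. Trarg1 turned to 0.76 without that tumour and Arxes2 to -0.03 without agonist replicate 1.

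As list means, the steps of fat metabolism around the members varied less, but this did not hold for every gene. Lpl ranged over 9.02-fold, Cd36 over 8.995-fold and Scd1 over 5.73-fold, above the member median of 5.63-fold. Lpl was highest in vehicle replicate 2 and Cd36 in agonist replicate 1, and both were lowest in vehicle replicate 3. All others in uptake, storage and synthesis ranged less than that median, up to 4.50-fold (Gpihbp1). The mean of uptake and storage spanned 0.81 log2 units. In lipid uptake and storage, 6 of 14 were positive with a median of -0.06, and the 3 with the smallest unadjusted p were the acyltransferases Agpat2 (-0.31 ± 0.24), Dgat2 (-0.55 ± 0.45) and Gpam (0.20 ± 0.20). In fatty acid synthesis, 5 of 10 were positive with a median of -0.04. Scd1, the stearoyl-CoA desaturase and an LXR target, was at 995, 2138 and 863 CPM with agonist and at 373, 965 and 580 with vehicle, and the groups overlapped. Its log2 fold change was 1.06 ± 0.47 (SE; edgeR adjusted p 0.990). Leaving out agonist replicate 2 brought it to 0.54. Thrsp, a lipogenic regulator, was at 0.65 ± 0.49, and Mlxipl, the carbohydrate-responsive factor ChREBP, was at -0.75 ± 0.29. Mlxipl was at 9.13, 9.20 and 9.14 CPM with agonist and at 18.7, 9.56 and 17.9 CPM with vehicle. It was lower in all 3 agonist tumours, beside 4.22% of all genes. Vehicle replicate 2 was nearly level with the agonist tumours. Leaving out vehicle replicate 2 moved Thrsp to 1.34, and 0 genes of either list were called. The mean of the synthesis genes spanned only 0.48 log2 units among tumours and peaked in agonist replicate 2, while the mean of the members spanned 2.29.

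In the hormonal control of lipolysis, 2 of 12 genes were positive and 10 negative. In log2, their median was -0.19, and 0 were called. The smallest unadjusted p belonged to the beta-1 adrenergic receptor Adrb1 (-0.97 ± 0.41) and the insulin receptor substrates Irs1 (-0.58 ± 0.30) and Irs2 (-0.36 ± 0.23). Among adipogenic transcription factors 3 of 11 were positive (median -0.04, 0 called). Stat5a, which acts in adipogenesis and in the milk-forming epithelium, was at 45.6, 69.8 and 62.1 CPM with agonist and at 96.2, 99.7 and 98.3 with vehicle. The groups did not overlap, beside 4.22% of all genes in that direction. The log2 fold change of -0.73 ± 0.18 had an unadjusted p of 0.00376 and an adjusted p of 0.990 by edgeR. The zinc finger factor Zfp467 was at -0.45 ± 0.34, and at -0.14 without vehicle replicate 1, and Rxra, the partner of PPARgamma and LXR, at -0.31 ± 0.20.

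Brown and beige fat genes apart from Ucp1 had their highest mean in agonist replicate 1. Of the 16 on the list 15 were tested, 9 positive and 6 negative (median 0.08, 0 called), and the mean deviation was 0.95 in agonist replicate 1, 0.59 in vehicle replicate 2 and -0.67 in vehicle replicate 3. Of the 15, 9 were highest in agonist replicate 1, beside 15.8% of all genes. All 8 skeletal muscle markers were highest in that tumour too, and the part of muscle in these levels was not tested. Dio2 and Otop1 were highest in vehicle replicate 2, Prdm16 and Tmem26 in vehicle replicate 1, Fabp3 in agonist replicate 2 and Cited1 in vehicle replicate 3. Cox8b, a cytochrome oxidase subunit of brown fat and muscle, was at 17.2, 4.22 and 2.43 CPM with agonist and at 4.81, 16.8 and 1.69 with vehicle. The elongase Elovl3 had 83, 13 and 3 counts with agonist and 8, 41 and 0 with vehicle, and the potassium channel Kcnk3 had 80, 12 and 2 against 13, 49 and 10. Cox8b, Elovl3, Kcnk3, Zic1 and the genes named by their highest tumour were chosen after their values were seen. Zic1, a marker of classical brown fat, had 0 counts in all 6 tumours, which allows at most 0.0813 CPM in any of them. The genes with the smallest unadjusted p were Fabp3 (1.43 ± 0.74), the beige fat regulator Prdm16 (-1.52 ± 1.03) and Cpt1b (0.69 ± 0.58), which moved to 0.64 without agonist replicate 2, to -3.52 without agonist replicate 1 and to 0.26 without agonist replicate 1, respectively.

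Other adipokines (9 tested, 5 positive, median 0.01) and adipocyte progenitor genes (10 tested, 6 positive, median 0.09) had 0 calls, and both means were highest in vehicle replicate 2 and lowest in vehicle replicate 3. Haptoglobin (Hp, -0.90 ± 0.74) and the chemokine Ccl2 (-0.73 ± 0.76) turned to 0.52 and 0.78 without vehicle replicate 2, and Rbp4, the retinol carrier, went from 0.49 ± 0.65 to -0.13 without agonist replicate 1. Among progenitor genes Anxa3 (0.42 ± 0.16) was higher in all 3 agonist tumours, beside 3.02% of all genes. Dpp4 was at -0.87 ± 0.38 and Dlk1, the preadipocyte factor, at 0.53 ± 0.79. Without vehicle replicate 3 the value of Dpp4 was -0.45 and that of Dlk1 was 0.05.

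Markers of fibroblasts and macrophages shared the highest and the lowest tumour of the adipocyte mean, but not its whole order. In log2 CPM, the mean of 8 fibroblast and matrix genes was 0.83, 0.05 and 0.50 in the agonist tumours and -0.44, 1.29 and -2.22 in the vehicle tumours, with summed levels from 194 TPM in vehicle replicate 3 to 1886 TPM in vehicle replicate 2. Macrophage genes (7) were also highest in vehicle replicate 2 (1.01) and lowest in vehicle replicate 3 (-1.23). The 6 milk genes, which are epithelial, had the same extremes by mean (1.61 and -1.14) but not by summed level. Their sum was 21573 TPM in vehicle replicate 2 and 24552 TPM in vehicle replicate 3. It was highest in agonist replicate 2 (29030 TPM) and lowest in agonist replicate 1 (13547 TPM). All 8 endothelial, 8 fibroblast, 8 skeletal muscle and 7 myoepithelial genes had positive log2 fold changes (medians 0.34, 0.27, 0.22 and 1.19), beside 49.3% of all genes, with 0 called by edgeR. Genes of 1 cell type are not separate observations, so these counts do not test a difference by treatment. Vehicle replicate 3 had the lowest endothelial (-0.88), fibroblast (-2.22) and myoepithelial (-1.40) mean. The myoepithelial mean was 1.88 in agonist replicate 3 and between -0.24 and 0.01 in the remaining tumours. Over the 151 tested genes of the pathway and cell type lists together, 0 were called by edgeR, DESeq2, limma-voom or limma-trend. By edgeR, 8 had an unadjusted p under 0.05, beside 0.719% of all genes higher and 2.37% lower with agonist. Agonist replicate 3 stood apart, low in adipocyte genes (-0.79) but above the mean for fibroblasts and highest for 7 myoepithelial genes (1.88). The luminal epithelial mean was also highest in vehicle replicate 2 (0.35) but moved over 0.54 log2 units only. Of 8 genes of lymph node B and T cells 3 were tested, and their sum was at most 1.92 TPM. Whether these cell types have a part in the adipocyte values was not tested.

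**Figure D4:**
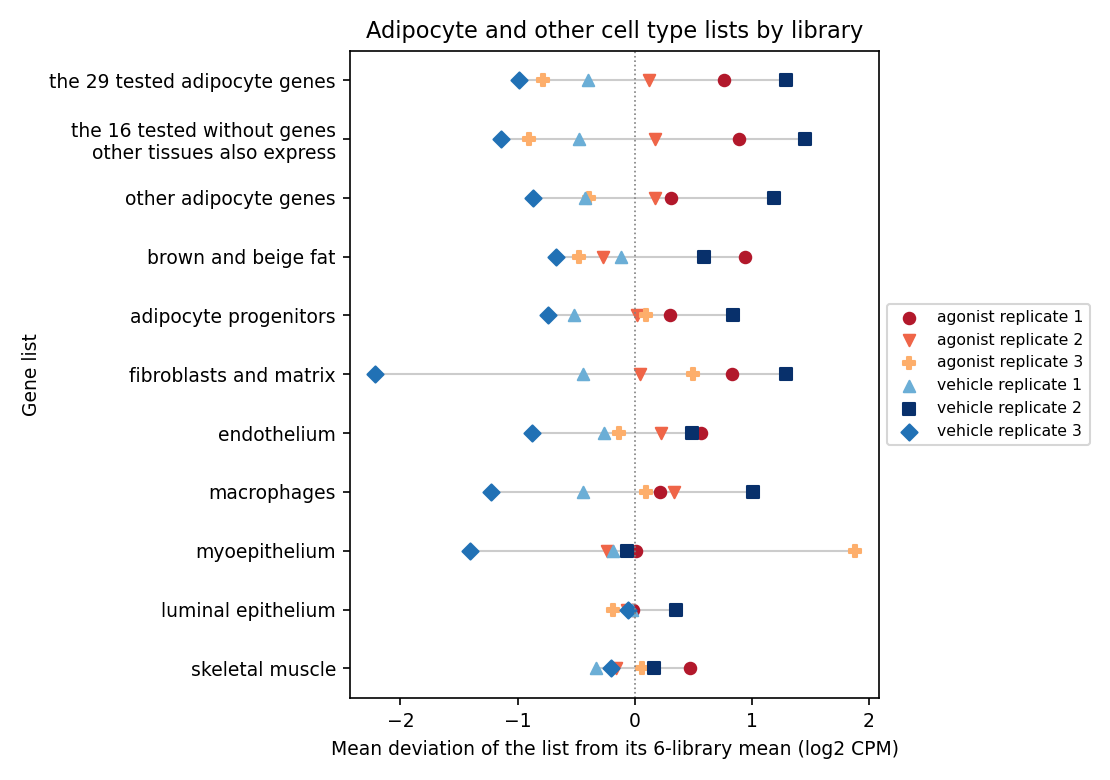
Mean deviation of each gene list from its own mean, in log2 CPM, for each tumour library, with 1 symbol per library (reds for agonist, blues for vehicle). The adipocyte, fibroblast and macrophage lists place vehicle replicate 2 at the top and vehicle replicate 3 at the bottom. The luminal epithelial list also has vehicle replicate 2 at the top (0.35) but spans only 0.54 log2 units.

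The genes whose profile over the 6 tumours was most like the mean of the members were sought among 14328 genes with a mean log2 CPM of at least 0, by the root mean square difference of the centred values. The closest 8 were Hmcn2 (0.182), Cdo1 (0.241), Itih5 (0.267), Gvin1 (0.276), C1qtnf9 (0.283), Ifi202b (0.288), Gpihbp1 (0.290) and Egfl7 (0.291), in log2 CPM over 6 tumours, beside a median of 0.854 for all genes compared. Hmcn2, which encodes the matrix protein hemicentin 2, had 441, 370 and 212 counts with agonist and 232, 875 and 137 with vehicle. Cdo1, cysteine dioxygenase, had 486, 269 and 255 against 230, 730 and 152. C1qtnf9 encodes a secreted relative of adiponectin and had 89, 61 and 52 against 56, 124 and 41 counts. Gpihbp1, the capillary anchor of lipoprotein lipase, had 268, 284 and 111 against 113, 336 and 80. In each of these 4 the highest tumour was vehicle replicate 2 and the lowest vehicle replicate 3. The genes were chosen for a profile like that of the members, so this is not a separate result.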

How the data were processed

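Total RNA of 6 mammary tumours, 3 per group by the treatment label and numbered by their titles, was sequenced. The deposited tables hold RSEM expected counts and TPM per gene, made by the authors. Per the submitters' processing notes, the tools were RSEM 1.3.1, STAR 2.7.9a, cutadapt 3.5 and FastQC 0.11.9 with build GRCm38. The strand setting and annotation release were not given in the sources used here.

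Expected counts, of which 10.1% to 10.5% were not whole in each library, were rounded. Of the 30 members, 25 had whole counts in every library and 9 share exon sequence with a gene on the other strand. edgeR 4.0.16 in R 4.3.3 was run over all genes (TMM, filterByExpr with a minimum count of 10, robust quasi-likelihood F test, Benjamini-Hochberg adjustment, threshold 0.05), and tested on simulated data. List levels are means of centred log2 CPM with a prior count of 2. Intervals of single counts are exact Poisson intervals at 95% and cover counting error only, as there are no molecular identifiers. Gene positions are from GENCODE M21 (GRCm38).

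The members and lists were chosen with earlier results of these data known. Named genes are all members, the 3 genes of each pathway list with the smallest unadjusted p and the 8 genes with the most similar profile. Other list genes are named for their highest tumour, range or ratio to Adipoq, after their values were seen. Alternatives were other scaling factors, filters and tests (DESeq2 1.42.0, limma 3.58.1), a replicate block, TPM in place of counts, and each library left out in turn. FPKM was not used.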

Additional observations from a re-analysis of the deposited data

How the results depend on the processing

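No setting called a member, and 0 of all genes were called in each setting except the DESeq2 Wald test, which called 5, none of them a member (772 genes at an unadjusted p under 0.05, against 538 by edgeR). The median log2 fold change of the members kept its sign with DESeq2 size factors (-0.24), upper-quartile factors (-0.20), both filters and the DESeq2 test, and was 0.07 by limma-voom and 0.02 by limma-trend on log2(TPM + 1). It ran from -0.68 without agonist replicate 1, where Lep passed the filter too (-0.65 over the other 29 members), to 0.96 without vehicle replicate 2. The difference in the mean member level, agonist minus vehicle, ran from -0.41 to 0.73 log2 CPM with libraries left out, against 0.07 with all. The cause of each change of sign was not tested.

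With the replicate number as a block, members split 17 positive and 12 negative (median 0.07), with signs turned for Adipoq (0.28), Cfd (0.62), Orm1 (0.19), Cidec (0.18), Ces1d (0.31), Pparg (0.034), Car3 (0.0162), Cyp2e1 (0.16) and Ucp1 (-0.0162). The deviations of same-numbered tumours correlated at 0.17, 0.04 and 0.06 across genes, which are not independent replicates. Those of tumours with different numbers correlated at between -0.11 and 0.05. The labels do not say whether the number marks a shared litter, batch or day, and so few tumours cannot decide it. The block changed no call.

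By limma-voom the sign turned for Adipoq (0.23), Cfd (0.53), Orm1 (0.17), Plin1 (0.0176), Cidec (0.14), Ces1d (0.60), Pparg (0.0604), Cyp2e1 (0.12) and Ucp1 (-0.0736). On log2(TPM + 1) it turned for Adipoq (0.16), Cfd (0.53), Mgll (0.0642), Ces1d (0.44), Pparg (0.00169), Adrb3 (-0.028), Acvr1c (0.0356) and Cyp2e1 (0.0401), and with upper-quartile factors for Mgll (0.0109) and Ces1d (0.000171).

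With 1 library left out at a time, the log2 fold changes of Adipoq (-1.08 to 1.32), Retn (-0.70 to 1.80), Cfd (-1.03 to 1.65), Orm1 (-1.48 to 1.32), Plin1 (-0.90 to 1.09), Plin4 (-0.90 to 0.0809), Cidec (-1.14 to 1.31), Cidea (-0.29 to 1.58), G0s2 (-0.31 to 0.42) and Lipe (-0.75 to 0.0535) crossed 0. So did those of Mgll (-0.16 to 0.13), Aqp7 (-0.82 to 1.73), Pck1 (-1.34 to 1.06), Ces1d (-0.58 to 0.36), Ces1f (-0.17 to 2.55), Pparg (-0.61 to 0.68), Cebpa (-0.41 to 0.26), Adrb3 (-0.40 to 0.96), Acvr1c (-0.60 to 0.56) and Slc2a4 (-0.0205 to 0.46), and those of Fabp4 (-0.78 to 1.82), Car3 (-1.02 to 1.03), Cyp2e1 (-1.16 to 1.28), Retsat (-0.0876 to 0.41), Ucp1 (-1.90 to 1.60), Trarg1 (-1.11 to 0.76), Arxes2 (-0.0257 to 0.41), Hp (-1.28 to 0.52), Ccl2 (-1.14 to 0.78) and Rbp4 (-0.13 to 1.28). Pnpla2, Gpd1, Pde3b and Npr3 were the tested members that kept their sign in every such fit.

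Lep, Retn, Orm1, Aqp7, Ces1f and Acvr1c rest on 3 to 14 counts in their lowest tumour. With 3 tumours a group and wide intervals, a difference of a few fold was not detectable in most of the adipocyte genes. The intervals of Pnpla2, Gpd1, Mgll and Retsat were narrower.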
